A study of Mus musculus with 10 samples.

Results

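Heat shock proteins and chaperones are described here through 9 mouse genes, Hspa1a, Hspa1b, Hspa5, Hspa8, Hsp90aa1, Hsp90ab1, Hsph1, Dnaja1 and Dnajb1, matched by symbol and followed over sorted monocytes and neutrophils. They are 9 of the 29972 genes with a matched transcript, and all 9 passed the filter on low counts that left 13398 genes for testing. The RNA came from CCR2+ monocytes and from neutrophils, sorted by flow cytometry out of the lungs of NOD/scid mice, an immunodeficient strain, which bore a breast tumour to end point. TN2 is the tumour HCl-002, given by the labels as low metastatic, and TN1 is HCl-001, given as highly metastatic. Every mouse bore a tumour, and no tumour-free group was analysed here. There were 4 groups: TN2 monocytes (tag_367, tag_706 and tag_1341), TN1 monocytes (tag_191 and tag_482), TN2 neutrophils (the same 3 tags as TN2 monocytes) and TN1 neutrophils (the same 2 tags as TN1 monocytes). Whether each tag is an animal of its own is not stated in the labels, so what the p-values weigh is the spread between libraries, part of which may be technical. Animal age and sex were not given in the sources used here.

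Heat shock proteins of the HSP70 family bind exposed hydrophobic stretches of unfolded proteins and release them in a cycle driven by ATP. J-domain proteins bring substrates to HSP70 and trigger its ATP hydrolysis, HSP110 proteins exchange the nucleotide and let the substrate go, and HSP90 proteins act later on partly folded kinases and receptors. Some of these genes are constitutively active, while others are switched on by heat shock factor 1 when proteins misfold, and a separate set of genes answers misfolding in the endoplasmic reticulum (ER).

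Libraries held 7239218 to 11311370 estimated counts, the reads that kallisto assigned to transcripts. Monocyte libraries had 714 to 9017 TPM (a length-corrected level that sums to the same total in each library) summed over 12 neutrophil markers, against 138835 to 214709 TPM in neutrophil libraries. Over 10 monocyte markers the sums were 4836 to 10599 TPM in monocyte libraries and 912 to 1765 TPM in neutrophil libraries, so both labels fitted their markers. The tag_482 libraries had the fewest genes with at least 5 counts in either cell type, 9744 in monocytes and 8863 in neutrophils. Their share of TPM on mitochondrially encoded genes was also the highest of each cell type, 19.9% in monocytes and 3.0% in neutrophils. The TN2 tag_706 monocyte library had the most genes, 15231, and stood apart in its markers. It had the highest sums for neutrophil markers (9017 TPM, against 714 to 3891 TPM in the other monocyte libraries), endothelial markers (1308 TPM, against 13.8 to 99.0 TPM) and lung epithelial markers (818 TPM, against 2.66 to 239 TPM), and the lowest sum of monocyte markers (4836 TPM, against 6364 to 10599 TPM). Dendritic cell markers summed to 156 to 995 TPM in monocyte libraries and 24.5 to 62.8 TPM in neutrophil libraries, and natural killer cell markers to 43.7 to 689 TPM and 0.265 to 50.8 TPM. The part of these cells in the differences below was not tested. In bulk samples, fewer cells of a type and less RNA per cell cannot be told apart.

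The promoters of the inducible members are shown because heat shock factor 1 is known to bind repeats of the letters nGAAn in alternating orientation. RefSeq promoter windows of GRCm38.p6, 250 bases before to 50 bases after a start site, were found for 6 of the 9 members, and Hspa8, Hsp90aa1 and Hsp90ab1 are named only. Capitals mark the letters GAANNTTC or TTCNNGAA, a heat shock element of 2 blocks searched on both strands, except in Hspa5. In Hspa5 they mark the ER stress element, the letters CCAAT and CCACG with 9 bases between them, likewise on both strands. Hspa1a and Hspa1b lie side by side in the same orientation on chromosome 17, with 9951 bases between them.
Hspa1a, chr17:34972107-34972406, minus strand: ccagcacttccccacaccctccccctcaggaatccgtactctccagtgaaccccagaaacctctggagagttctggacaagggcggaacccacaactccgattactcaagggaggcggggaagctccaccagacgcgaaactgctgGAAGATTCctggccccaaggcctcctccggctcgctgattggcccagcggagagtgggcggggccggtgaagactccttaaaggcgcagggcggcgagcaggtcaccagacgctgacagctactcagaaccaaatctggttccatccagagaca
Hspa1b, chr17:34959189-34959488, minus strand: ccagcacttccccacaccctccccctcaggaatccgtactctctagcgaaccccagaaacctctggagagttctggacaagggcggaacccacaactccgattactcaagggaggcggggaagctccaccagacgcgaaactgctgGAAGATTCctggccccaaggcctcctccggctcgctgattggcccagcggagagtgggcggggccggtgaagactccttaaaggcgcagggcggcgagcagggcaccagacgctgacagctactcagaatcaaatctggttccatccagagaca
Hsph1, chr5:149636287-149636586, minus strand: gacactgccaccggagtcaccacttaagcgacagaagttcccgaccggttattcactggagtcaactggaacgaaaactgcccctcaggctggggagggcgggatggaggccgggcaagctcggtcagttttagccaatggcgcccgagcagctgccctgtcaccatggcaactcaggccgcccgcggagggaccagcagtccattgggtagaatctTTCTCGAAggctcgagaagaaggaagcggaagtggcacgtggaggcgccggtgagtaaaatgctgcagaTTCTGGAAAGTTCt
Dnaja1, chr4:40722218-40722517, plus strand: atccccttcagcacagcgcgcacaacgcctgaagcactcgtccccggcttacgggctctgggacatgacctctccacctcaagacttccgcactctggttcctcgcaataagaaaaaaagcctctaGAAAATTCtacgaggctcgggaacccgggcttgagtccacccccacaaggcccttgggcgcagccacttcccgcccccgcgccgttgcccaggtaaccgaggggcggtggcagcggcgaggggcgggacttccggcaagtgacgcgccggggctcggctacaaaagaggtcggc
Hspa5, chr2:34771840-34772139, plus strand: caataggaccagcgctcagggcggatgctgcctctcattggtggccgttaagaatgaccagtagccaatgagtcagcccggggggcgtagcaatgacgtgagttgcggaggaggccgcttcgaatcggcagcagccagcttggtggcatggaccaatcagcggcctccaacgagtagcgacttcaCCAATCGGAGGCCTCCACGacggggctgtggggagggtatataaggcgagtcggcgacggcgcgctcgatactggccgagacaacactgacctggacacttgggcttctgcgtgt

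Counting the start site as position 1, Hspa1a and Hspa1b both had their element at -104 to -97, and the windows of these copies differed at 4 of 300 bases. Hsph1 held 3 such matches in the window shown, at -33 to -26, 37 to 44 and 42 to 49. The last 2 overlapped and formed an element of 3 blocks at 36 to 50, the only one among the 6 members searched. A second Hsph1 window, whose start differs, held the same letters. Dnaja1 held 1 match, at -124 to -117, in 1 of its 3 windows. No match was found in the 2 Dnajb1 windows or the Hspa5 window. The ER stress element of Hspa5 lay at -65 to -47. Of 32851 windows of the same length, 15.1% held the 2-block letters, 0.597% the 3-block letters and 0.119% the ER stress element. A match describes letters and is not a measured binding site.

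Monocytes and neutrophils used the chaperones in different proportions. Hspa8, Hsp90ab1 and Hsph1 were higher in monocytes, Dnaja1 was lower, and the other 5 genes did not pass the test. The question was which chaperones differ between the sorted cell types when both tumours are weighted equally. Tests used edgeR's quasi-likelihood F test on counts scaled by TMM, a factor per library that holds most genes level, with p-values adjusted over 13398 genes and a threshold of 0.05. Values after ± are SE for log2 differences and SD for levels. Of the 9 members, 4 passed (3 higher and 1 lower), beside 27.9% of all genes tested (15.5% higher and 12.4% lower). The same 4 were the members whose TMM-scaled libraries did not overlap between the cell types, beside 28.5% of all genes. Over all genes this split was 2077 higher and 1664 lower, and it became 3912 and 887 with plain library totals and 4534 and 1201 with limma on log2(TPM + 1). The median difference was 1.25 over the members and 0.46 over all genes, on the log2 scale.

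**Figure D1:**
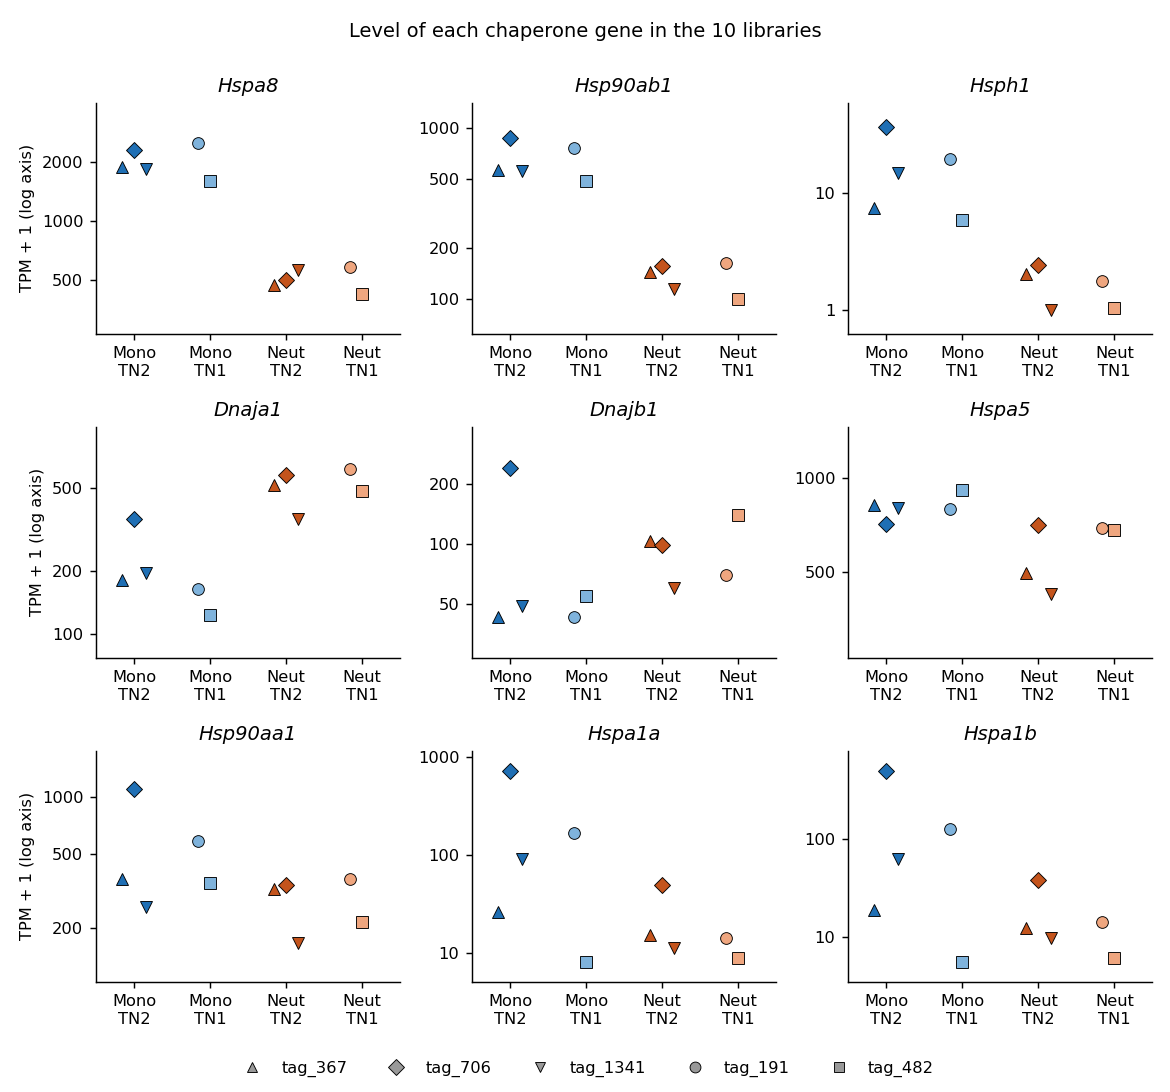
Level of each of the 9 genes in each library, as TPM + 1 on a log axis, by cell type (Mono, monocytes; Neut, neutrophils) and tumour, with 1 symbol per tag. Monocyte libraries lie above all neutrophil libraries for Hspa8, Hsp90ab1, Hsph1 and, by a small margin, Hspa5, and below them for Dnaja1. The tag_706 diamond is the highest monocyte point for 7 genes.

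Hspa8 (ENSMUSG00000015656, chromosome 9, 40800984 to 40810087, plus strand), the constitutive cytosolic HSP70 that also uncoats clathrin vesicles, had the highest summed TPM of the 9 members in every monocyte library. On coding transcripts alone it was highest in 3 of the 5, and Hspa5 was highest in the tag_482 library (694 TPM for Hspa8 and 879 TPM for Hspa5) and, by a small margin, in the tag_1341 library. It had 1891, 2311 and 1835 TPM in TN2 monocytes (tag_367, tag_706 and tag_1341) and 2505 and 1592 TPM in TN1 monocytes (tag_191 and tag_482). In the same order of tags it had 471, 500.1 and 564 TPM in TN2 neutrophils and 586 and 425 TPM in TN1 neutrophils. The lowest monocyte library lay well above the highest neutrophil library. Hspa8 averaged 1535 ± 288 CPM (counts scaled to a common library total with TMM factors) in monocytes and 663 ± 135 CPM in neutrophils (n = 5 each). The difference was 1.25 ± 0.21 on the log2 scale, a 2.38-fold level, with an edgeR adjusted p of 0.00223. It was positive within each of the 5 tags, from 0.58 to 1.5. Within TN2 the difference of Hspa8 was 1.01 ± 0.27 with an edgeR adjusted p of 0.0345. That call was lost, with adjusted p of 0.0521 to 0.116, without the tag_367 or tag_1341 monocytes of TN2, either monocyte library of TN1, or the tag_367 or tag_706 neutrophils of TN2. Within TN1 it was 1.49 ± 0.33 with an edgeR adjusted p of 0.0187, and lost without either TN1 monocyte library or the TN1 tag_482 neutrophils (adjusted p of 0.0603 to 0.117).

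Hsp90ab1 (ENSMUSG00000023944, chromosome 17, 45567775 to 45573271, minus strand), the constitutive cytosolic HSP90, moved with Hspa8. Its levels were 566, 870.4 and 558 TPM in TN2 monocytes, 764 and 485 TPM in TN1 monocytes, 143, 155 and 113 TPM in TN2 neutrophils and 161 and 99.5 TPM in TN1 neutrophils. No libraries overlapped between the cell types. The log2 difference was 1.53 ± 0.21, or 2.89-fold, with an edgeR adjusted p of 0.000615. It was positive within all 5 tags, from 1.25 to 1.77. Both tumours gave a call on their own, 1.35 ± 0.26 within TN2 (edgeR adjusted p = 0.00836) and 1.71 ± 0.32 within TN1 (edgeR adjusted p = 0.00918). Its inducible relative Hsp90aa1 (ENSMUSG00000021270, chromosome 12, 110690605 to 110702728, minus strand) did not follow it. Hsp90aa1 had 366, 1107 and 259 TPM in TN2 monocytes, 586 and 349 TPM in TN1 monocytes, 326, 341 and 165 TPM in TN2 neutrophils and 368 and 216 TPM in TN1 neutrophils. Its cell types overlapped, and the log2 difference was 0.11 ± 0.35 with an edgeR adjusted p of 0.847. The ratio of Hsp90ab1 to Hsp90aa1 TPM within a library, which no scaling between libraries can change, was 0.787 to 2.16 in monocytes and 0.437 to 0.683 in neutrophils.

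Hsph1 (ENSMUSG00000029657, chromosome 5, 149614287 to 149636376, minus strand), an HSP110 exchange factor for HSP70, was low in both cell types and lowest in neutrophils. It had 6.44, 36.1 and 13.9 TPM in TN2 monocytes and 18.5 and 4.84 TPM in TN1 monocytes. In neutrophils it had 1.02, 1.41 and 0 TPM in TN2 and 0.779 and 0.0342 TPM in TN1. The neutrophil values rested on 30, 48, 0, 25 and 1 counts. A count of 0 in the tag_1341 library allows up to 3 counts (counting error only). These are 0.279 CPM by the plain library total, without the TMM factor. That ceiling was not computed on the TMM scale of the other CPM values. The log2 difference was 3.89 ± 1.16 with an edgeR adjusted p of 0.0322. This call was lost when any of 4 libraries was left out: adjusted p was 0.0796 without the TN1 tag_191 monocytes, 0.0591 without the TN2 tag_706 monocytes, 0.0922 without the TN1 tag_482 neutrophils and 0.0621 without the TN2 tag_367 neutrophils. The direction held in all of these, with a log2 difference of 3.26 at the lowest and, without the TN1 tag_191 neutrophils, 5.61 at the highest.

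Dnaja1 (ENSMUSG00000028410, chromosome 4, 40722150 to 40737149, plus strand), a J-domain partner of cytosolic HSP70, ran the other way. It had 180.4, 355 and 195 TPM in TN2 monocytes, 162 and 121 TPM in TN1 monocytes, 521, 580.0 and 357 TPM in TN2 neutrophils and 618 and 484 TPM in TN1 neutrophils. All monocyte libraries lay below all neutrophil libraries, although the tag_706 monocytes (355 TPM) came close to the tag_1341 neutrophils (357 TPM). Dnaja1 averaged 235 ± 64.9 CPM in monocytes and 1043 ± 209 CPM in neutrophils (n = 5 each). It fell by 2.21 ± 0.25 on the log2 scale in monocytes, a 4.63-fold lower level, with an edgeR adjusted p of 0.000263. Within TN2 it fell by 1.94 ± 0.31 (edgeR adjusted p = 0.00343) and within TN1 by 2.48 ± 0.38 (edgeR adjusted p = 0.00461). Within TN2 and within TN1, 3 of 9 members passed in each, Hspa8, Hsp90ab1 and Dnaja1, beside 13.1% and 12.5% of all genes. The TN1 calls rest on 2 libraries per cell type: without the TN1 tag_482 neutrophils 1 member passed, and without both tag_482 libraries 0 did.

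**Figure D2:**
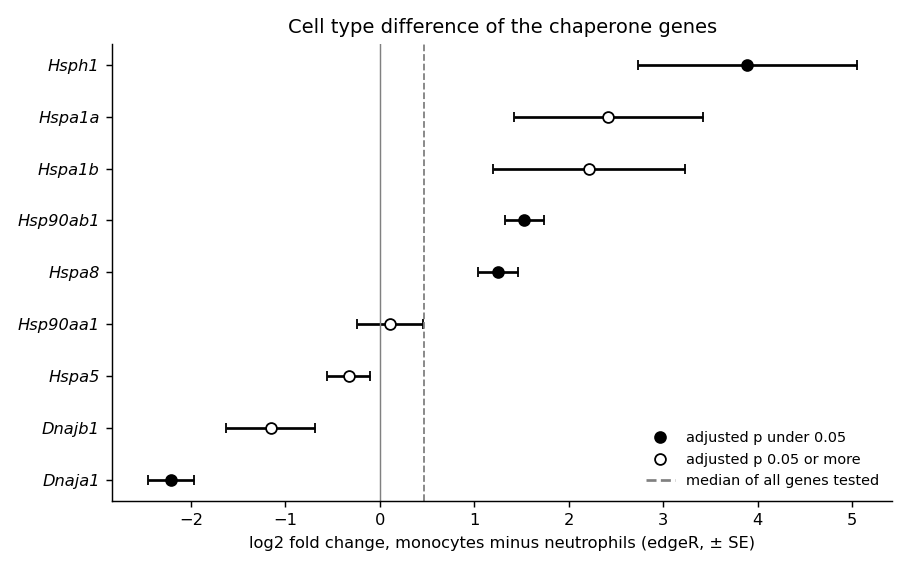
Log2 difference of each gene, monocytes minus neutrophils, from the edgeR fit of 10 libraries, with its SE as the bar. Filled points passed an adjusted p of 0.05 (Hsph1, Hsp90ab1, Hspa8 and Dnaja1), and the dashed line is the median of all genes tested, 0.46.

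Dnajb1 (ENSMUSG00000005483, chromosome 8, 83608193 to 83612653, plus strand), the HSP40 protein that works with inducible HSP70 and is itself a heat shock gene, leaned the same way as Dnaja1 except in 1 library. It had 42.2, 239.9 and 47.8 TPM in TN2 monocytes, 42.3 and 54.1 TPM in TN1 monocytes, 103, 98.2 and 59.5 TPM in TN2 neutrophils and 69.0 and 139 TPM in TN1 neutrophils. Of the monocyte libraries, 4 lay below all neutrophil libraries on both the TPM and the TMM scale. The tag_706 library lay above all neutrophil libraries in TPM. On the TMM scale it had 281 CPM, below the tag_482 neutrophils (332 CPM) and above the tag_706 neutrophils (254 CPM). The log2 difference was -1.16 ± 0.47 with an edgeR adjusted p of 0.0949. Without the tag_706 monocytes it was -1.75, with an edgeR adjusted p of 0.00261.

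Hspa5 (ENSMUSG00000026864, chromosome 2, 34771970 to 34777547, plus strand), the HSP70 of the ER also called BiP, had the least variable TPM of the 9 genes among monocytes, with a coefficient of variation of 9.02%. On the TMM scale that coefficient was 25.0%, above those of Hspa8 (18.8%) and Hsp90ab1 (16.6%). Its levels were 820.5, 712 and 801 TPM in TN2 monocytes, 795 and 916 TPM in TN1 monocytes, 495, 708 and 422 TPM in TN2 neutrophils and 689 and 682 TPM in TN1 neutrophils. On the TPM scale every monocyte library was above every neutrophil library, by a small margin between the tag_706 monocytes (712 TPM) and the tag_706 neutrophils (708 TPM). On the TMM scale the means were 1281 ± 319.9 CPM in monocytes and 1621 ± 378 CPM in neutrophils (n = 5 each). There the log2 difference was -0.33 ± 0.23 with an edgeR adjusted p of 0.303, and with plain library totals it was 0.50, with an edgeR adjusted p of 0.0581. The direction of Hspa5 thus turned with the scaling. Plain library totals moved the median of all genes to 1.29, so that Hspa5 lay 0.79 below the median of all genes under both scalings. The same shift left Hspa8 0.79 above the median with TMM and 0.82 above with totals, Hsp90ab1 1.07 and 1.09 above, and Dnaja1 2.67 and 2.65 below.

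The stress-inducible HSP70 genes Hspa1a (ENSMUSG00000091971, chromosome 17, 34969190 to 34972156, minus strand) and Hspa1b (ENSMUSG00000090877, chromosome 17, 34956436 to 34959238, minus strand) varied more than any other member in monocytes. In neutrophils the coefficient of variation of TPM was 88.2% for Hspa1a and 84.8% for Hspa1b, below the 95.4% of the few-count Hsph1. Hspa1a had 25.0, 718 and 89.7 TPM in TN2 monocytes and 166 and 7.07 TPM in TN1 monocytes, a 102-fold range. In neutrophils it had 14.3, 47.6 and 10.1 TPM in TN2 and 13.2 and 7.81 TPM in TN1, a 6.09-fold range. Hspa1b followed the same order of libraries in monocytes, with 17.7, 499 and 61.6 TPM in TN2 and 124 and 4.51 TPM in TN1. In neutrophils Hspa1b had 11.2, 37.2 and 8.70 TPM in TN2 and 13.2 and 4.96 TPM in TN1. The cell types overlapped for both genes, and the tag_482 monocytes were lower than every neutrophil library. The log2 differences were 2.42 ± 1.0 for Hspa1a (edgeR adjusted p = 0.0982) and 2.21 ± 1.02 for Hspa1b (edgeR adjusted p = 0.130). Within a tag, Hspa1a differed by -0.57 to 2.99. Without the TN1 tag_191 monocytes the difference of Hspa1a was 0.60, and without the TN2 tag_706 monocytes it was 1.34. DESeq2's Wald test passed both genes, with adjusted p of 0.0199 and 0.0395. It called 5272 of all 13398 genes, where edgeR called 3741.

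Hspa1a and Hspa1b are near-identical copies, and how reads were divided between them is uncertain. Of the 31-base windows of the Hspa1a transcript, 63.8% also occur in that of Hspa1b, and 67.5% the other way round. No 31-base window of Hspa1a occurs in Hspa8. Summed, they had 42.7, 1218 and 151 TPM in TN2 monocytes, 290.1 and 11.6 TPM in TN1 monocytes, 25.4, 84.7 and 18.8 TPM in TN2 neutrophils and 26.4 and 12.8 TPM in TN1 neutrophils. Hspa1a held 50.1% to 61.2% of the sum over the 10 libraries. With an unmatched transcript that the authors' means for Hspa1b include, it held 47.4% to 51.5% in monocytes and 42.7% to 52.6% in neutrophils, so which copy was higher turned with that transcript. The summed log2 difference was 2.34 ± 1.01, with an edgeR adjusted p of 0.110.

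The order of levels on the TPM scale, which corrects for length, differed between the cell types. In monocytes Hspa8 stood first in all 5 libraries, with 33.7% to 48.5% of the 9 genes' summed TPM. Hspa5, Hsp90ab1 and Hsp90aa1 followed at 809 ± 73.0, 649 ± 161 and 533 ± 342 TPM (n = 5), neighbours whose ranges overlapped. Dnaja1, Hspa1a, Hspa1b and Dnajb1 came next at 203 ± 89.2, 201 ± 296, 141 ± 205 and 85.2 ± 86.6 TPM, and their ranges overlapped. Within a library Dnaja1 was above Dnajb1, and Hspa1a above Hspa1b, in 5 of 5 monocyte libraries, the second of these without the unmatched Hspa1b transcript. Hsph1 was last at 15.9 ± 12.5 TPM. In neutrophils Hspa5, Dnaja1 and Hspa8 shared the top by summed TPM at 599 ± 132, 512 ± 101 and 509 ± 66.1 TPM (n = 5), with overlapping ranges. On coding transcripts alone Hspa5 was highest in every neutrophil library, at 415 to 696 TPM. Hspa8 had 176 to 247 coding TPM there, without overlap. By summed TPM Hsp90aa1 followed at 283 ± 87.7 TPM, then Hsp90ab1 at 134 ± 26.8 and Dnajb1 at 93.7 ± 31.4 TPM, which overlapped. Hspa1a and Hspa1b had 18.6 ± 16.4 and 15.0 ± 12.7 TPM, and Hsph1 had 0.649 ± 0.619 TPM. Dnaja1 held 3.15% to 5.18% of the 9 genes' TPM in monocytes and 21.0% to 25.0% in neutrophils. The ratio of Hspa8 to Dnaja1 TPM within a library was 6.52 to 15.4 in monocytes and 0.862 to 1.58 in neutrophils, without overlap. The ratio of Hspa8 to Hsp90ab1 was closer between the cell types, 2.65 to 3.34 in monocytes and 3.22 to 4.99 in neutrophils.

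**Figure D3:**
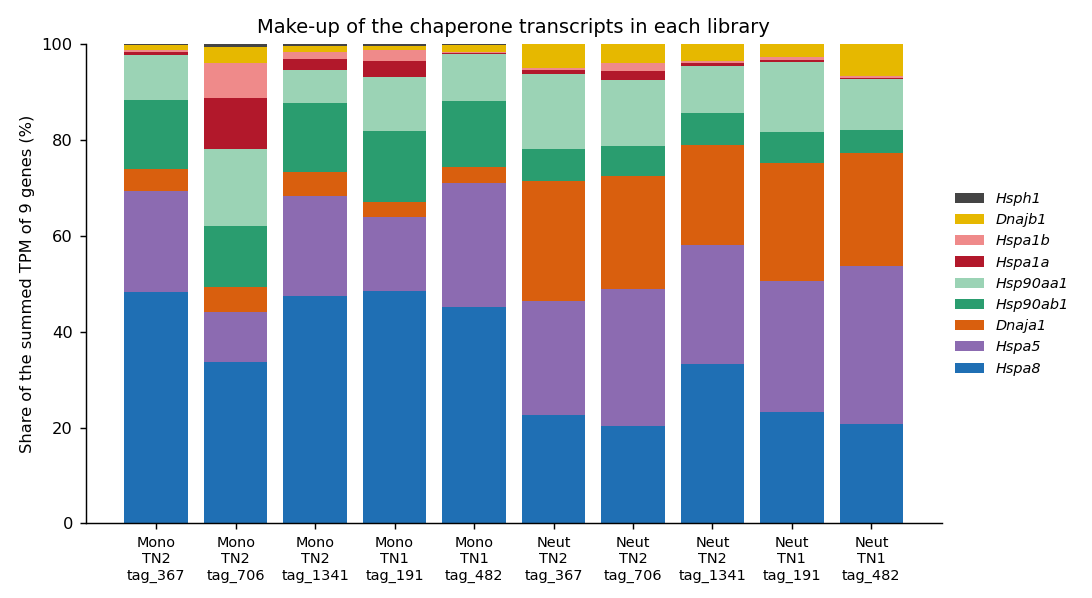
Share of each gene in the summed TPM of the 9 genes, in percent, as 1 bar per library with monocytes (Mono) left of neutrophils (Neut). Hspa8 takes 33.7% to 48.5% of each monocyte bar and 20.3% to 33.2% of each neutrophil bar, and Dnaja1 3.15% to 5.18% and 21.0% to 25.0%.

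The annotated transcripts behind these sums were uneven. Hspa1a, Hspa1b, Hsph1 and Dnajb1 each rested on 1 matched transcript. The coding transcript Hspa8-202 (2019 bases) held 41.3% to 45.8% of Hspa8 TPM and 70.1% to 74.4% of its counts. Most of the rest of the Hspa8 TPM was on the non-coding Hspa8-209 (727 bases), at 52.5% to 57.2%. For Hsp90aa1 the coding Hsp90aa1-202 (3281 bases) held 53.6% to 66.0% of the counts and 19.3% to 33.0% of the TPM. For Dnaja1 the coding Dnaja1-201 (3376 bases) held 59.5% to 74.3% of the counts and 30.4% to 44.3% of the TPM. The shorter coding Dnaja1-205 (916 bases) held up to 49.7% of its TPM, and non-coding transcripts 7.57% to 33.4%. Levels of Hspa8 and Hsp90aa1 in TPM therefore rest largely on short annotated transcripts, and those of Dnaja1 largely on transcripts other than Dnaja1-201. The part of this in the Dnaja1 shares and ratios given above was not tested. Hsp90ab1 (66.2% to 81.2% of TPM) and Hspa5 (66.3% to 84.0% of TPM) rest mainly on 1 coding transcript each. Hspa1b, Hspa5 and Hsph1 sums lay below the means in the authors' deposited tables by up to 0.63, 0.02 and 0.30 on the log2(TPM + 1) scale. For Hspa1b and Hspa5, 1 and 2 unmatched transcripts made up that gap, and adding them left the cell type differences at 2.20 and -0.33. For Hsph1 no transcript was found that made up the gap, so nothing was added back. Its largest gap was in TN2 neutrophils, with 1.06 for the authors' mean and 0.76 here. TN1 neutrophils had 0.44 in both, and the gaps in monocytes were smaller (in TN1, 3.47 and 3.41). The effect of this gap on the Hsph1 difference between cell types was not tested.

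The TN2 tag_706 monocyte library held the highest TPM of the 5 monocyte libraries for 7 of 9 members, all but Hspa5 and Hspa8, where 40.9% of all genes tested were highest in it. It was at least 2-fold above the next library for 3 members, beside 16.8% of all genes. These were Dnajb1 (4.44-fold above the next library), Hspa1a (4.33-fold) and Hspa1b (4.03-fold), and Hsp90aa1, Hsph1 and Dnaja1 were 1.82-fold to 1.96-fold above it. Of the small heat shock proteins 4 of 5 were likewise at least 2-fold above the next monocyte library (Hspb1, Cryab, Hspb6 and Hspb8), and of the HSP70 and HSP110 relatives 5 of 8 (Hspa1l, Hspa12a, Hspa4l, Hspa2 and Hspa12b). The co-chaperones gave 2 of 19 (Bag3 and Bag2), J-domain proteins 1 of 23, unfolded protein response regulators 1 of 12, and TRiC with prefoldin, mitochondrial chaperones, ER chaperones and heat shock factors 0 of 14, 9, 16 and 3. Without the tag_706 monocytes only 6 of the 8 HSP70 and HSP110 relatives passed the filter on low counts. Of the 5 named relatives, Hspa1l, Hspa12a, Hspa4l and Hspa12b had just 1.19 to 4.70 TPM in that library. Of 19 immediate early genes, transcription factors and regulators switched on fast by many stimuli, 17 were highest there and 8 at least 2-fold, among them Fos, Egr1, Jun and Atf3. Hspa5 had its lowest monocyte level there, and of 16 ER chaperones and folding enzymes 1 was highest in it. The library's endothelial, epithelial and neutrophil marker sums given above moved with these values, no marker of those 3 lists was at 0 in it, and their part in the values was not tested. The tag_706 neutrophil library was the highest of its cell type for 4 of 9 members, beside 14.6% of all genes. Only Hspa1a (3.33-fold) and Hspa1b (2.82-fold) exceeded the next library at least 2-fold, beside 4.69% of all genes, and 1 of 19 immediate early genes was highest in that library.

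The tumour comparison asked whether the chaperones of lung neutrophils or monocytes differ between mice bearing the low and the highly metastatic tumour. None of the 9 members passed the test in either cell type, beside 0.0% of the 13398 genes in each. At an unadjusted p under 0.05 edgeR listed 380 genes in monocytes and 626 in neutrophils, 2.84% and 4.67%, and none was a member. DESeq2 called 22 genes in monocytes and 87 in neutrophils, limma on log2(TPM + 1) 0 and 1, and none was a member. Without the TN1 tag_191 monocytes edgeR called 128 genes in monocytes, and without the TN1 tag_191 neutrophils 510 in neutrophils, again no member. The lone TN1 library was then assumed to vary like the other groups. In the authors' deposited tables all 9 members had an adjusted p of 1 in both cell types.

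In monocytes, TN2 minus TN1, the largest log2 differences were those of Hspa1a and Hspa1b, 1.34 ± 1.39 and 1.25 ± 1.42, both with an edgeR adjusted p of 1. Hspa1a averaged 438 ± 588 CPM in TN2 monocytes (n = 3) and 173 ± 221 CPM in TN1 monocytes (n = 2). These differences, and the 0.75 ± 0.67 of Dnajb1 and 0.35 ± 1.43 of Hsph1, changed sign without the TN2 tag_706 monocytes, to -0.79 for Hspa1a, -0.89 for Hspa1b, -0.40 for Dnajb1 and -0.43 for Hsph1. Without the TN1 tag_482 monocytes Hsph1 also turned, to -0.43. On the TMM scale Hspa5 had 1216, 899 and 1184 CPM in TN2 monocytes and 1325 and 1779 CPM in TN1 monocytes, without overlap. On the TPM scale given above the groups overlapped. Of all genes, 20.1% had TN2 and TN1 monocyte libraries that did not overlap. The log2 difference of Hspa5 was -0.50 ± 0.32, with an edgeR adjusted p of 1, and -0.13 in the authors' deposited table. The TN1 tag_482 library at the top of this range is the library with 19.9% mitochondrial TPM. Hspa8 differed by -0.34 ± 0.30, Hsp90aa1 by -0.26 ± 0.49, Hsp90ab1 by -0.23 ± 0.28 and Dnaja1 by 0.32 ± 0.33, and their libraries overlapped.

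In neutrophils, TN2 minus TN1, the groups overlapped for all 9 members, where 17.7% of all genes did not overlap. Hspa8 averaged 688 ± 156 CPM in TN2 neutrophils (n = 3) and 627 ± 142 CPM in TN1 neutrophils (n = 2), a log2 difference of 0.13 ± 0.30. Hsp90ab1 differed by 0.14 ± 0.29, Hsp90aa1 by 0.13 ± 0.50, Dnaja1 by -0.22 ± 0.33, Dnajb1 by -0.21 ± 0.66 and Hspa5 by -0.24 ± 0.32. Hspa1a and Hspa1b had the largest differences, 1.29 ± 1.40 and 1.17 ± 1.43, with edgeR adjusted p of 0.961 and 0.970. Hsph1 differed by 1.02 ± 1.52, on few counts. The difference between the tumour effects of the cell types was tested as an interaction. It was -0.67 to 0.96 over the 9 members, with an edgeR adjusted p of 1.0 for each. None of them passed, beside 0.0% of the 13398 genes. At an unadjusted p under 0.05 edgeR listed 472 of all genes for it, and DESeq2 called 30. These SEs set what the libraries could show: on the log2 scale they are 0.28 to 0.30 for Hspa8 and Hsp90ab1, and 1.39 to 1.52 for Hspa1a, Hspa1b and Hsph1.

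**Figure D4:**
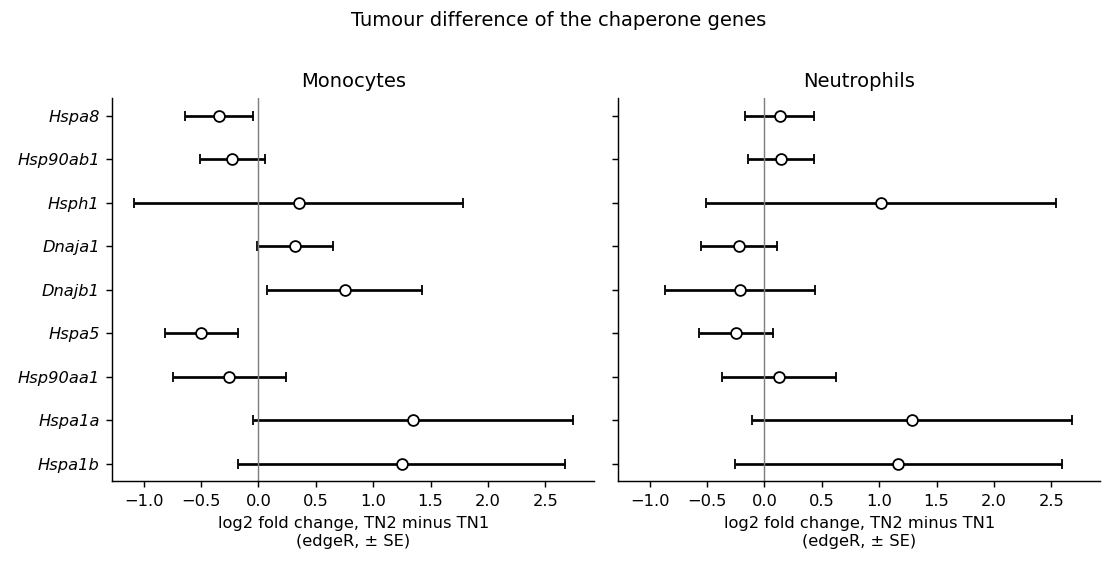
Log2 difference of each gene, TN2 minus TN1, in monocytes (left) and neutrophils (right), from the edgeR fit of 10 libraries, with its SE as the bar. No gene passed an adjusted p of 0.05 in either cell type, and Hspa1a, Hspa1b and Hsph1 have the widest bars, 1.39 to 1.52.

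The other chaperones of the cell were read from lists for monocytes minus neutrophils, each count beside the 15.5% of all genes that were higher and the 12.4% that were lower. Of 16 ER chaperones and folding enzymes, 14 were higher in monocytes and 1 lower, with a median log2 difference of 2.27 beside 0.46 over all genes. The lectin chaperone Canx had 393 ± 91.8 CPM in monocytes and 74.1 ± 10.7 CPM in neutrophils, a log2 difference of 2.47 ± 0.21 (edgeR adjusted p = 8.29e-05). The ER HSP90 Hsp90b1 differed by 2.35 ± 0.32, the disulfide isomerase Pdia3 by 2.06 ± 0.31 and the secreted ER protein Manf by 2.86 ± 0.35. Hspa5, which works with several of these proteins, had its own difference of -0.33 ± 0.23, as given above. Dnajb9, an ER J-domain protein, was the member of the list that was lower, at -1.18 ± 0.35. This call was lost without the TN1 tag_191, TN2 tag_367 or TN2 tag_706 neutrophils. It was also lost without the TN1 tag_482 or TN2 tag_1341 monocytes, and with library totals or limma.

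Mitochondrial chaperones and proteases gave 7 higher and 0 lower of 9, with a median of 2.66. Hspd1 and Hspe1, which form the mitochondrial chaperonin, differed by 2.71 ± 0.37 and 3.23 ± 0.50, and the mitochondrial HSP70 Hspa9 by 2.63 ± 0.31. Clpb, a disaggregase, differed by 3.46 ± 0.61. Mitochondrially encoded genes took 4.82% to 19.9% of TPM in monocytes and 0.283% to 3.0% in neutrophils, and the part of this in the list was not tested. The cytosolic chaperonin TRiC, which folds actin and tubulin, and its partner prefoldin gave 9 higher and 0 lower of 14, with a median of 1.94. Its subunits Cct8, Cct5, Cct7 and Cct6a differed by 1.79 ± 0.23, 2.25 ± 0.30, 1.99 ± 0.30 and 2.29 ± 0.37.

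**Figure D5:**
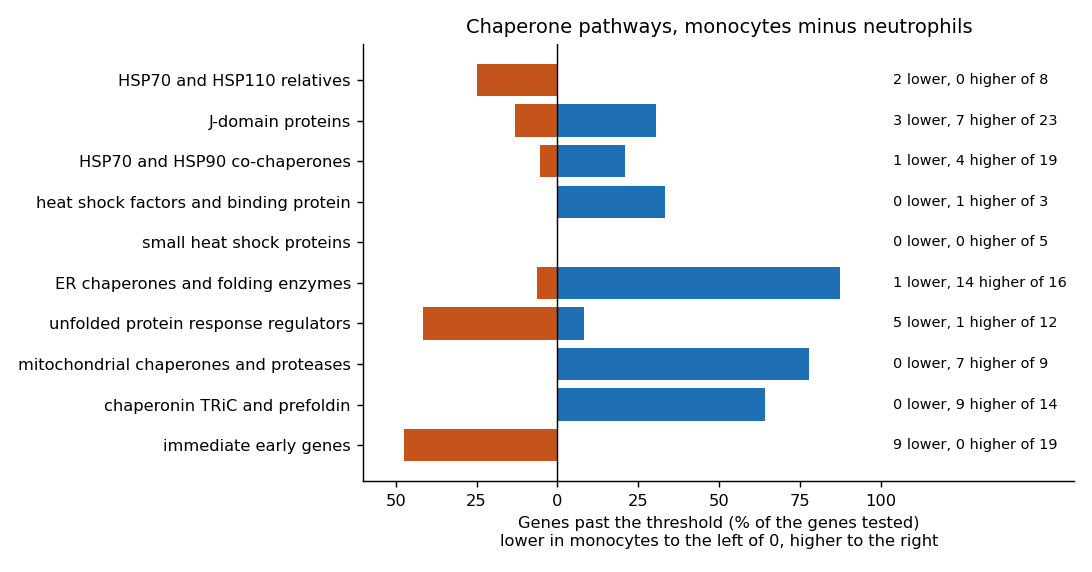
Share of the tested genes of each list that passed an edgeR adjusted p of 0.05 for monocytes minus neutrophils, in percent, with genes lower in monocytes left of 0 and genes higher in monocytes right of it, and the counts beside each bar. ER chaperones (14 higher of 16), mitochondrial chaperones (7 of 9) and TRiC with prefoldin (9 of 14) extend to the right, and immediate early genes (9 lower of 19) to the left.

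Closer partners of the 9 genes were mixed. Dnajb9, Dnajb11 and Dnajc3 belong to both the ER list and the J-domain list, so their calls are counted in each. Of 23 tested J-domain proteins, 7 were higher and 3 lower, among them Dnajb11 at 2.19 ± 0.43, Dnajc7 at 1.23 ± 0.28, Dnajc3 at 1.17 ± 0.24 and Dnajb6, a suppressor of aggregation, at -1.11 ± 0.19. This count of 10 fell to 6 without the TN1 tag_191 monocytes, the TN2 tag_1341 monocytes or the TN1 tag_482 neutrophils, and to 5 without the TN2 tag_367 monocytes or the TN2 tag_706 neutrophils. Of 19 HSP70 and HSP90 co-chaperones, 4 were higher and 1 lower. The nucleotide exchange factor Hspbp1 differed by 4.48 ± 0.88, the HSP90 partner Chordc1 by 3.76 ± 0.89 and Bag3, an exchange factor that directs clients to autophagy, by 2.48 ± 0.64. Unc45a, a myosin chaperone that binds HSP90, differed by -1.89 ± 0.27. Without the TN1 tag_191 neutrophils 8 of these 19 passed in place of 5.

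Of 8 HSP70 and HSP110 relatives, 0 were higher and 2 lower, Hspa4 (-0.96 ± 0.22) and Hspa13 (-1.56 ± 0.46). Neither passed without the TN1 tag_482 monocytes, and 1 passed without the TN2 tag_367 or tag_706 monocytes, the TN1 tag_191 or tag_482 neutrophils, or the TN2 tag_706 neutrophils. Hsf1, heat shock factor 1 itself, was 1 of 3 tested genes of its list and differed by 1.29 ± 0.43 with an edgeR adjusted p of 0.0482, a call lost without any single library except the TN2 tag_1341 neutrophils. None of 5 tested small heat shock proteins passed. Of 12 regulators of the unfolded protein response, 1 was higher and 5 lower, with 3 in place of 6 called without the TN1 tag_191 monocytes or the TN2 tag_706 neutrophils. Ppp1r15a, which restarts translation after stress, differed by -1.86 ± 0.28, the pro-apoptotic factor Ddit3 by -1.44 ± 0.32, Herpud1 by -1.10 ± 0.25 and asparagine synthetase Asns by -1.87 ± 0.52. Of 19 immediate early genes, 0 were higher and 9 lower, among them Btg2 (-3.41 ± 0.31), Dusp1 (-2.52 ± 0.30), Fosl2 (-2.12 ± 0.20) and Nr4a1 (-2.10 ± 0.29).

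With plain library totals the ER, mitochondrial and TRiC lists stayed higher, at 15, 8 and 12 higher and 0 lower. The lists that leaned lower changed with that scaling: HSP70 and HSP110 relatives had 0 called, unfolded protein response regulators 2 higher and 1 lower, and immediate early genes 1 higher and 5 lower. The direction of Dnajb9 was not followed over the scalings. No other gene named from a list in the last 3 paragraphs or from the ER list changed direction under any scaling tried. In the tumour comparisons 0 genes of these 10 lists passed in either cell type. Their medians, TN2 minus TN1, were -0.42 to 2.60 in monocytes and -0.86 to 0.65 in neutrophils, beside 0.22 over all genes in each. The 2.60 was that of the HSP70 and HSP110 relatives, beside medians of 2.84 for endothelial and 2.38 for neutrophil markers in the same comparison, whose part in it was not tested.

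Genes whose pattern over the 10 libraries was most like the mean of the 9 members were ranked among 5292 genes with a mean of at least 10 TPM. The measure was the root mean square difference of log2(TPM + 1), centred within each cell type and scaled to unit SD, so that smaller means more alike. Plet1 was closest at 0.212, followed by Gimap5 (0.303), the death receptor Fas (0.367), the myosin light chain Myl9 (0.371), Gm17167 (0.377) and Gm20400 (0.383), where the median over all genes was 1.20. Of the members, Hspa1a (0.213), Hspa1b (0.219) and Hsph1 (0.220) lay nearest to the mean and Hspa5 (1.41) farthest. Each member is part of that mean, and the near-identical Hspa1a and Hspa1b both enter it, so part of this closeness is built in. Hspa1a had its highest level in the tag_706 monocytes (718 TPM) and its lowest in the tag_482 monocytes (7.07 TPM). The part of single libraries in this ranking was not tested.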

How the data were processed

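The 10 libraries of monocytes and neutrophils were made by Smart-seq2, a full-length method whose counts include PCR copies, so the floor of 3 counts covers counting error only. Per the design text, kallisto 0.42.3 with a GRCm38 transcriptome gave the values the authors deposited. Per the file headers these are estimated counts and TPM for each transcript. Transcripts were summed to genes with GENCODE release M21, which matched 81927 of 85276 (96.1%); the unmatched held 1.92% to 3.56% of counts. The authors' deposited comparison tables give group means on a log2 scale, and p-values, raw and adjusted; how these were made beyond AltAnalyze is not given in the sources used here.

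Rounded gene counts of all 4 groups entered a single edgeR 4.0.16 fit (R 4.3.3; filterByExpr with a total of 10, TMM, quasi-likelihood F test, 6 residual degrees of freedom, biological coefficient of variation 0.887). p-values were adjusted by Benjamini-Hochberg over 13398 genes, and each SE is the absolute log2 difference over the square root of F. The script was tested on simulated data. The members and lists were chosen with earlier results of these data known. Of each list, up to 4 genes past the threshold with the smallest p are named. Protein identity between members was planned and not run, since no protein table was used here. Alternatives were DESeq2 1.42.0, its size factors, library totals, no filter, limma 3.58.1 on log2(TPM + 1) and log2(TPM + 0.1), a tag block and left-out libraries.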

Additional observations from a re-analysis of the deposited data

How the results depend on the processing

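Over the 12 settings that left out 1 or 2 libraries, 3 to 4 members passed for monocytes minus neutrophils, 2 to 4 within TN2, 0 to 4 within TN1 and 0 in both tumour comparisons. Over the 9 other settings 4 to 6 passed for monocytes minus neutrophils, the 6 with DESeq2 and with library totals, which added Hspa1a and Hspa1b. Hspa8, Hsp90ab1 and Dnaja1 passed in all of these settings, with log2 differences of 1.10 to 2.11, 1.39 to 2.38 and -2.36 to -1.36. Of 13398 genes tested for monocytes minus neutrophils, DESeq2 called 5272 and library totals 4799, in place of 3741 in the main fit. Leaving out both tag_706 libraries, and adding the unmatched transcripts of Hspa1b and Hspa5, were chosen after seeing the data.

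Over all genes, DESeq2 called 3348 within TN2 and 3598 within TN1 in place of edgeR's 1751 and 1680. Limma on log2(TPM + 1) called 5735 for monocytes minus neutrophils in place of 3741, with 4652 within TN2 and 3331 within TN1, and on log2(TPM + 0.1) 3844 and 3105. Library totals gave 2696 within TN2. With libraries left out the counts fell to 819 within TN2 (both tag_706 libraries) and 136 within TN1 (both tag_482 libraries). No filter, library totals and limma called 0 to 3 genes in the tumour comparisons.

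Directions turned only for members that did not pass in that comparison. Hspa5 for monocytes minus neutrophils was 0.50 with library totals and 0.43 with limma on log2(TPM + 1) and on log2(TPM + 0.1), each against -0.33. With limma at both pseudocounts, TN2 minus TN1 was -0.094 for Hsp90aa1 in neutrophils, and in monocytes 0.0030 and 0.0031 for Hspa8, 0.061 and 0.060 for Hsp90aa1 and 0.095 for Hsp90ab1; the cause was not tested. With 1 library left out, Hsp90aa1 for monocytes minus neutrophils ran from -0.24 to 0.31, and it was -0.14 and -0.13 without both tag_482 and both tag_706 libraries. TN2 minus TN1 in neutrophils ran from -0.068 to 0.39 for Hspa8, -0.19 to 0.56 for Hsp90aa1, -0.055 to 0.39 for Hsp90ab1 and -0.63 to 0.41 for Dnajb1. Without both tag_482 libraries these 4 were -0.11, -0.22, -0.094 and 0.37, and without both tag_706 libraries the values of Hsp90aa1 and Hsp90ab1 were -0.22 and -0.12. TN2 minus TN1 in monocytes ran from -0.79 to 4.51 for Hspa1a, -0.89 to 4.64 for Hspa1b, -0.43 to 1.30 for Hsph1 and -0.40 to 0.90 for Dnajb1. Without both tag_706 libraries Hspa1a was at -0.79, Hspa1b at -0.89, Hsph1 at -0.43 and Dnajb1 at -0.40, and without both tag_482 libraries 0.33, 0.22, -0.33 and 1.0 in this order. With the 3-block letters in place of the 2-block letters, 1 member in place of 4 held a heat shock element. The order of levels was the same by CPM or without mitochondrially encoded genes for 7 to 9 of the 9 members.

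Deviations of the libraries that share a tag correlated at -0.06 to 0.38 over the 5 tags, 4 of which correlated best with their own tag. Both TN1 tags gave the same 0.089, since 2 libraries of a group deviate from their mean as mirror images. The check therefore does not decide whether tags are pairs. The main fit did not take them as pairs. With the tag as a replicate block, 5 members passed for monocytes minus neutrophils in place of 4, adding Dnajb1 at -1.33 (edgeR adjusted p = 0.0216), and 2 in place of 3 within TN2, where Hspa8 had 1.03 (edgeR adjusted p = 0.0507). Of all 13398 genes the block gave 3341 calls in place of 3741 for monocytes minus neutrophils, and 1584 in place of 1751 within TN2. No paired analysis was possible for TN2 minus TN1 because tags are nested in tumours. Low counts limit Hsph1, and 2 or 3 libraries a group limit every tumour comparison.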
